A study of Mus musculus with 3 samples.

Results

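The genes described here encode the enzymes that make and destroy the cyclic nucleotides cAMP and cGMP. They were all genes on the array whose annotated symbol is an adenylate cyclase (Adcy followed by a number) or a phosphodiesterase (Pde followed by a number and at most 1 letter), without Pde5a, together with the soluble guanylate cyclase subunits and the guanylate cyclase receptor Gucy2c. The rule found 88 of the 45101 probe sets, which belong to 37 of the 18194 genes with a probe set of their own. These are 10 adenylate cyclases, 4 guanylate cyclase genes and 23 Pde genes. No probe set named Pde4c alone was present, and the older names Gucy1a3 and Gucy1b3 did not occur.

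Adenylate cyclases convert ATP to cAMP. Those of the plasma membrane are stimulated by the G protein Gs and differ in how calcium and other G protein subunits affect them. Soluble guanylate cyclase is a dimer of an alpha and a beta subunit that makes cGMP when it binds nitric oxide. Phosphodiesterases break both messengers down, and their families differ in substrate and in regulation by calcium, by cGMP or by phosphorylation. In the glomerulus cAMP and cGMP are known to relax mesangial cells, to act on endothelial permeability and podocyte shape and, in the arteriole beside it, to control renin release.

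Expression was measured in isolated glomeruli of 3 nondiabetic control mice. All were male FVB/NJ mice, an inbred strain, aged 8 weeks, with 1 Affymetrix array per mouse (n = 3), and they are called mice 1, 2 and 3 after their titles. FVB/NJ is known to carry the retinal degeneration allele of Pde6b, which encodes a subunit of the photoreceptor phosphodiesterase. The series was set up against diabetic OVE26 mice, which were not analysed here, so there is no comparison of groups and every statement is about a level in FVB glomeruli or a difference between mice. Values are log2 GCRMA expression values as deposited, and errors are SD over the 3 mice. Affinity differs between probe sets, so the level of a gene is not set against that of another gene.

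Markers of glomerular cells were read in all mice. All 6 podocyte, 8 glomerular endothelial and 7 mesangial markers that the array could read exceeded background in each mouse, against 58.3% of all genes. So did 8 of 9 proximal tubule markers and 4 of 8 of the tubule segments beyond, among them Umod (12.47, 13.56 and 13.06). Exceeding background therefore does not by itself single out glomeruli. Summed levels of markers of other cells differed between the mice. The summed level of 9 proximal tubule markers was 9.80, 10.17 and 11.15 in mice 1, 2 and 3 (log2 of the sum). That of 8 markers of the tubule segments beyond it was 12.75, 13.95 and 13.37, that of 7 macrophage markers 10.12, 9.35 and 8.57, and that of 6 lymphocyte and granulocyte markers 8.39, 7.38 and 6.40. Such sums weigh the brightest probe sets most, such as Umod, the macrophage gene Lyz2 (9.47, 8.22 and 7.02) and the proximal tubule gene Aqp1 (9.56, 9.81 and 9.80). They do not give the size of the difference of a usual marker. Over the 8 proximal tubule markers above background, the median difference of a mouse from the others was -1.90, -0.69 and 2.54. The macrophage genes Cd68 and C1qa and the lymphocyte genes Cd3e and Cd79a were below background in all mice. The actin 3′ minus 5′ control difference, which reflects RNA quality, was 1.49, 1.81 and 2.05, and that of Gapdh was 0.48, 1.08 and 0.92. Both controls were lowest in mouse 1, and they differ on which mouse is highest. The part of RNA quality in the differences between mice was not tested. In such bulk samples, more cells of a type and more RNA per cell cannot be told apart.

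Of the 37 genes, 25 (67.6%) exceeded the background threshold on all 3 arrays, against 58.3% of all 18194 genes. The threshold of an array was set from 80 probe sets of olfactory and vomeronasal receptor genes, which serve as an empirical floor, at their 95th percentile: 2.58, 2.91 and 2.86 in mice 1, 2 and 3. Another 11 genes were below it on every array. Pde4a was above it on 1 array, at 2.64, 2.71 and 2.69. Among the 88 probe sets, 47 were above background on all arrays, 5 on some and 36 on none, and 52.9% of all probe sets with 1 gene were above it on all arrays.

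**Figure D1:**
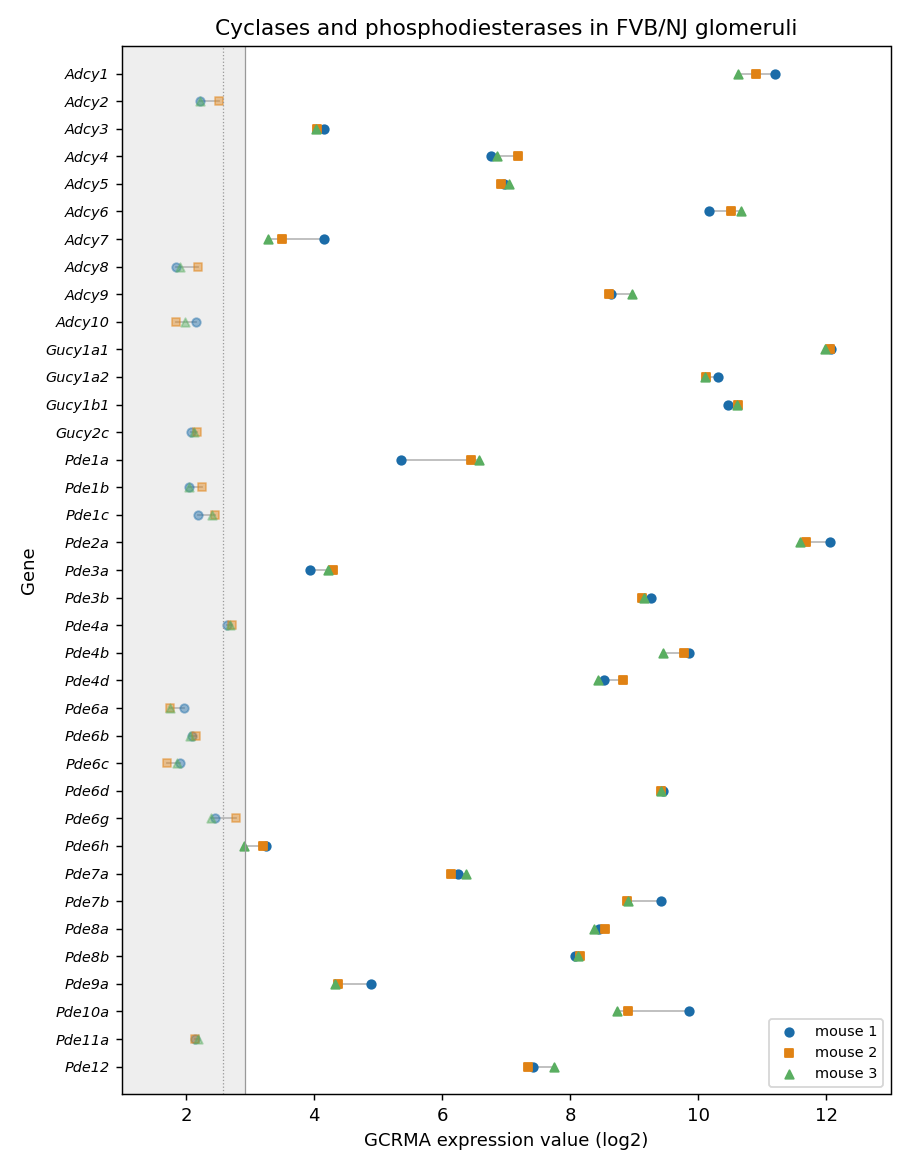
Expression value (log2) of each of the 37 genes in mice 1, 2 and 3, with the probe set of the highest mean for each gene. The grey band ends at the highest of the 3 background thresholds (2.91) and the dotted line marks the lowest (2.58). Pale symbols are the 12 genes not above background on all arrays, and the grey bars of Pde1a and Pde10a are the widest.

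Of 10 adenylate cyclases, 7 were above background in all mice. They include both calcium-inhibited enzymes, 2 of the 3 calcium-stimulated enzymes, 2 of the 3 enzymes that G protein beta-gamma subunits stimulate, and Adcy9, which responds weakly to forskolin. Adcy2, Adcy8 and the soluble, bicarbonate-sensitive Adcy10 were below background in all mice.

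Adcy1, a calcium and calmodulin-stimulated enzyme best known from neurons, was at 11.20, 10.90 and 10.61 in mice 1, 2 and 3. Its other probe set was at 5.10, 4.75 and 4.16, so both placed mouse 1 highest and mouse 3 lowest. The range was 0.59 on the log2 scale on the brighter probe set. Adcy3, also calcium-stimulated and known from olfactory cilia, was at 4.15, 4.04 and 4.03 and differed little between mice, and another probe set, at 4.06, 3.87 and 3.55, gave the same order.

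The calcium-inhibited cyclases are known from renin cells and, in the case of Adcy6, from the collecting duct. Adcy6 was at 10.17, 10.51 and 10.66, lowest in mouse 1, with a 1.41-fold range. Adcy5 was at 6.97, 6.91 and 7.03 (SD 0.06), a range of 0.12 against 0.49 for Adcy6. Adcy9 was at 8.64, 8.60 and 8.96, and all 4 of its probe sets were highest in mouse 3.

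Adcy4, which beta-gamma subunits stimulate, was at 6.77, 7.19 and 6.85, highest in mouse 2. Adcy7, of the same class and best known from blood cells, was at 4.16, 3.50 and 3.27 on the 1 of its 3 probe sets that was above background, a 1.85-fold range. It was highest in mouse 1. So were 3 of the 4 macrophage markers above background, such as Tyrobp (6.78, 4.79 and 3.36), and 3 of the 4 lymphocyte and granulocyte markers, such as Ptprc (7.43, 6.58 and 5.13). The exceptions, Csf1r (8.01, 8.23 and 7.69) and Ighm (3.63, 3.91 and 3.62), were highest in mouse 2, and the part of leukocytes in the Adcy7 difference was not tested.

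The soluble guanylate cyclase subunits had a narrow spread on their brightest probe sets. The usual SD of genes at their level, as fitted across all genes, was also low, at 0.10 to 0.12. Gucy1a1, which encodes the alpha-1 subunit, was at 12.07, 12.06 and 11.97 (SD 0.05), and Gucy1b1, which encodes its beta-1 partner, was at 10.46, 10.61 and 10.61 (SD 0.09). Gucy1a2, the alternative alpha subunit, was at 10.31, 10.13 and 10.10 (SD 0.12). The 3 mice thus lay within 0.21 of each other for each of these subunits on the brightest probe set. The dimmer probe sets spread more: Gucy1b1 was at 6.55, 6.34 and 5.84 on its other probe set, where mouse 1 was highest and not lowest. Gucy1a1 was at 8.09, 7.88 and 7.78 and at 5.08, 5.53 and 5.43 on its others, and these disagree on the order of the mice. Gucy2c, the gut receptor for guanylin, was below background (2.07, 2.18 and 2.12).

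Of 23 Pde genes, 15 were above background in all mice. Among those that can hydrolyse both messengers, Pde1a, Pde2a, Pde3a, Pde3b and Pde10a were above it, and Pde1b, Pde1c and Pde11a were below it in all mice. Pde1c was read by 6 probe sets, and none exceeded the thresholds on any array.

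Pde10a, a dual-substrate enzyme best known from the striatum, was at 9.85, 8.91 and 8.73 in mice 1, 2 and 3. Mouse 1 stood 2.17-fold above mouse 3, and mice 2 and 3 were close. Its 2 other probe sets above background were at 6.84, 5.83 and 6.14 and at 3.95, 3.55 and 3.50, so all placed mouse 1 highest. Pde1a, which calcium and calmodulin activate, had the widest range of the 25 genes, at 5.35, 6.44 and 6.57, a 2.33-fold difference. Here mouse 1 was lowest and the other mice were close, the opposite of Pde10a. Also lowest in mouse 1 were 8 of 8 proximal tubule markers above background and 3 of 4 of the segments beyond, among them Lrp2 (5.04, 5.43 and 7.81) and Umod (12.47, 13.56 and 13.06), and their part in the Pde1a values was not tested. Only 1 of the 2 probe sets of Pde1a was above background, so no other probe set bears on its range.

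Pde2a, which cGMP stimulates and which is known from endothelium, was at 12.06, 11.68 and 11.59, and on its other bright probe set at 10.27, 9.79 and 9.80. Mouse 1 was highest on both. It was also highest for 7 of 8 endothelial markers, against 34% of all genes, and the median difference of the markers from the other mice was 0.17 there. For Pde2a that difference was 0.42, and the part of endothelial cells in the Pde2a values was not tested. Pde3b, a cGMP-inhibited enzyme of fat and renin cells, was at 9.26, 9.12 and 9.15 (SD 0.07), and Pde3a, its cardiovascular relative, at 3.94, 4.29 and 4.22.

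**Figure D2:**
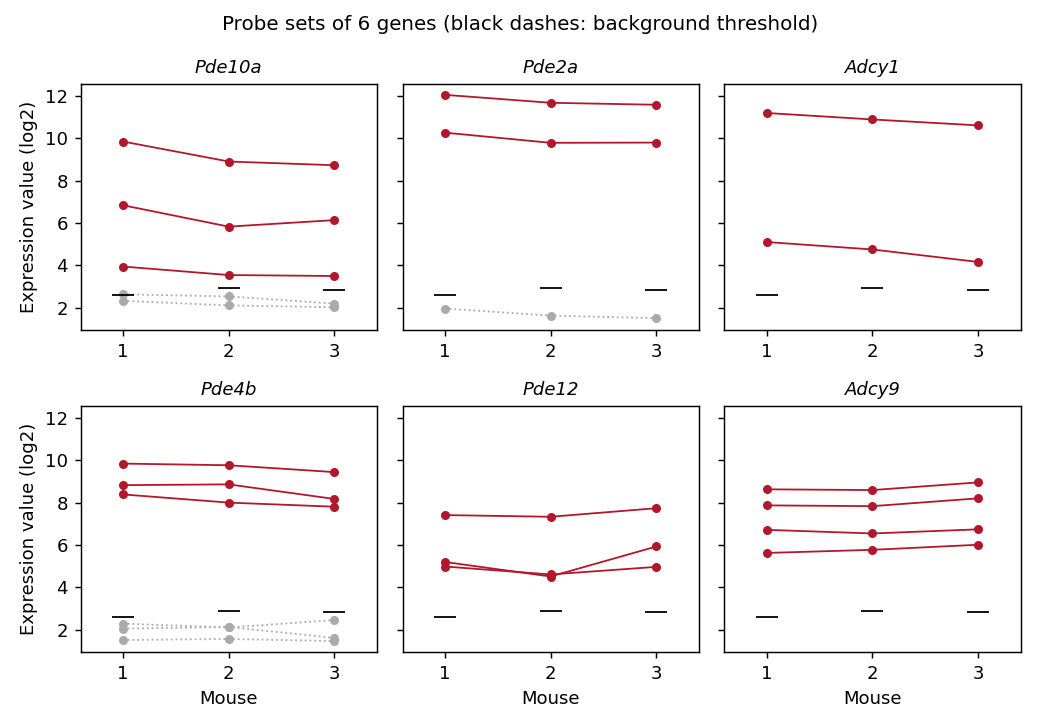
Expression value (log2) of every probe set of 6 genes in mice 1, 2 and 3. Red lines are probe sets above background on all arrays, dotted grey lines are the others, and lines only join the values of 1 probe set. For Pde10a, Pde2a, Adcy1 and Adcy9 the red probe sets agree on the highest mouse, and for Pde4b and Pde12 they do not.

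Promoter windows of the genes with the widest ranges, Pde10a and Pde1a, and of the paired subunits Gucy1a1 and Gucy1b1, neighbours on chromosome 3, are shown so that the sequence context of these opposite cases can be read. Both windows of Pde10a and the 1 window of Gucy1b1 are given, with 1 of the 4 windows of Pde1a, which is the only one of them with a marked motif, and 1 of the 2 windows of Gucy1a1. They run from 250 bases before to 50 bases after an annotated start, come from RefSeq (GRCm38.p6) and are written 5′ to 3′. Capitals mark TGACG or its reverse complement CGTCA, the half-site of the cAMP response element bound by CREB. The arrays do not show which start was used.
Pde10a promoter, chr17:8801495-8801794, plus strand: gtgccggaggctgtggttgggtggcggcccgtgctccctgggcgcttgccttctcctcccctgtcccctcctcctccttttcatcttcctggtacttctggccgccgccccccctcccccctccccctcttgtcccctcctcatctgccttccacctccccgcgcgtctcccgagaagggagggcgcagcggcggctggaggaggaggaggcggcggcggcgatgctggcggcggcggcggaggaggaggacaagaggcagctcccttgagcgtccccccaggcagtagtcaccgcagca
Pde10a promoter, chr17:8849735-8850034, plus strand: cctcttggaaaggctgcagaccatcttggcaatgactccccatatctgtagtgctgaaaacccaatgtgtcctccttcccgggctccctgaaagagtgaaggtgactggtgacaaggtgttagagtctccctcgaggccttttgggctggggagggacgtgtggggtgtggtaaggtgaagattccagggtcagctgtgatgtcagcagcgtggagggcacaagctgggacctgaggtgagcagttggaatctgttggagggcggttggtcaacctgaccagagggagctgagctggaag
Pde1a promoter, chr2:80038853-80039152, minus strand: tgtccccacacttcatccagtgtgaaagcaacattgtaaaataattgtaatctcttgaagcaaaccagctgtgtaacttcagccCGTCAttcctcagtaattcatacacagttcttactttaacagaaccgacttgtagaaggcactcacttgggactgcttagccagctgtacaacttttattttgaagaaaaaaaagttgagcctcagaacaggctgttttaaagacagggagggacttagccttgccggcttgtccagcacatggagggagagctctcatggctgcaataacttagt
Gucy1b1 promoter, chr3:82074662-82074961, minus strand: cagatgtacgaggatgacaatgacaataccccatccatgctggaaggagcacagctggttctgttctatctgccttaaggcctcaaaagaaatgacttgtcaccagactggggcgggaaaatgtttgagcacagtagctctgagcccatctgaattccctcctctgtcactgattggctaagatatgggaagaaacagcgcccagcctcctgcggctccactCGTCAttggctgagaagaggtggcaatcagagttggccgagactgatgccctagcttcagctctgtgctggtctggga
Gucy1a1 promoter, chr3:82145601-82145900, minus strand: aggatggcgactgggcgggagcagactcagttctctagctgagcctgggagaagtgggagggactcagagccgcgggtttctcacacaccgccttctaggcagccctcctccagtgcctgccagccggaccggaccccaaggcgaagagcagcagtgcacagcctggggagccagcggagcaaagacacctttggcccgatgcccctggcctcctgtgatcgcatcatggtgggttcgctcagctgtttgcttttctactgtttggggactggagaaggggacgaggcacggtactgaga
The half-site lay at position -166 from the start in the Pde1a window shown, and the other 3 Pde1a windows did not hold it. It lay at -28 in the Gucy1b1 window and was absent from both windows of Pde10a and both of Gucy1a1. RefSeq gave 52 such windows for 27 of the 37 genes, and 11 windows (21.2%) held the half-site on either strand, against 20.8% of all 32851 promoter windows. The full element TGACGTCA, which contains both half-sites, was in 0 of the 52 windows, against 1.79% of all windows. The genes with no window were Adcy6, Adcy8, Gucy2c, Pde3a, Pde3b, Pde6a, Pde6c, Pde6g, Pde7a and Pde9a.

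Among the cAMP-specific phosphodiesterases, 6 of the 7 read by the array exceeded background in each mouse. Pde4b, a target of rolipram-type inhibitors, was at 9.85, 9.77 and 9.45, lowest in mouse 3 on all 3 of its probe sets above background. Pde4d, of the same family, was at 8.52, 8.82 and 8.44. Pde7b was at 9.42, 8.89 and 8.90, highest in mouse 1 by a 1.44-fold range, while Pde7a was at 6.24, 6.14 and 6.38. For Pde7a, 5 of 7 probe sets were above background and they disagreed on which mouse was highest. On their brightest probe sets the high-affinity enzymes Pde8a (8.45, 8.54 and 8.36) and Pde8b (8.07, 8.16 and 8.11) differed by at most 0.18 between mice. The other probe set of Pde8b was nearly as bright and spread slightly more. It placed mouse 1 highest and not lowest, so the order of the mice for Pde8b depends on the probe set.

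Of the cGMP-specific enzymes and the photoreceptor subunits, Pde6a, Pde6b, Pde6c and Pde6g were below background in all mice, with Pde6b at 2.09, 2.15 and 2.06. These values do not bear on the retinal degeneration allele. Pde6h, the inhibitory subunit of cones, was at 3.25, 3.20 and 2.90, in mouse 3 only 0.05 above the threshold. Pde6d, which carries prenylated proteins to cilia and is named as a photoreceptor subunit, was at 9.45, 9.42 and 9.41 and had the narrowest spread of the 25 genes (SD 0.02). Pde9a, the high-affinity cGMP enzyme, was at 4.89, 4.37 and 4.33, highest in mouse 1. Pde12, whose product degrades RNA with 2′ linkages and acts on no cyclic nucleotide, was at 7.42, 7.34 and 7.74. Another of its probe sets was at 5.20, 4.52 and 5.94, a range over 2-fold that its brightest probe set did not show.

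The design allows 1 test, of whether a gene varied between mice more than genes of its level usually do. It was run with limma over all 10610 genes above background, and it called 0 of the 25 genes and 0 genes (0%) in all at a Benjamini-Hochberg adjusted p of 0.05. At an unadjusted p of 0.05 it picked 1 of the 25, Pde10a, against 494 of all genes (4.66%). Without mouse 1 it picked 0, against 342 of all 10648 genes. With no trend and no robust fit it picked Pde1a and not Pde10a, against 399 of all 10610 genes. For Pde10a (SD 0.60, n = 3) the limma p was 0.017 and the adjusted p 0.84, and for Pde1a (SD 0.67) they were 0.055 and 0.97. For the other genes of the 25 the unadjusted limma p ran between 0.073 for Adcy1 and 0.98 for Pde6d. A 2-fold range was present in 2 of the 25 genes (8%), against 5.94% of all genes above background. Without mouse 1 that count was 0, against 320 of all 10648 genes. Without mouse 3 it was 1, Pde1a, against 319 of all 10753. A range over fewer mice is never wider. The median SD of the 25 genes was 0.20, and 0.16 over all genes. Without mouse 1 these medians were 0.09 and 0.13, and without mouse 3 they were 0.11 and 0.12, so the 25 genes then lay below all genes and not above them. Without mouse 2 the medians were 0.20 and 0.13, so the 25 genes stayed above all genes.

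**Figure D3:**
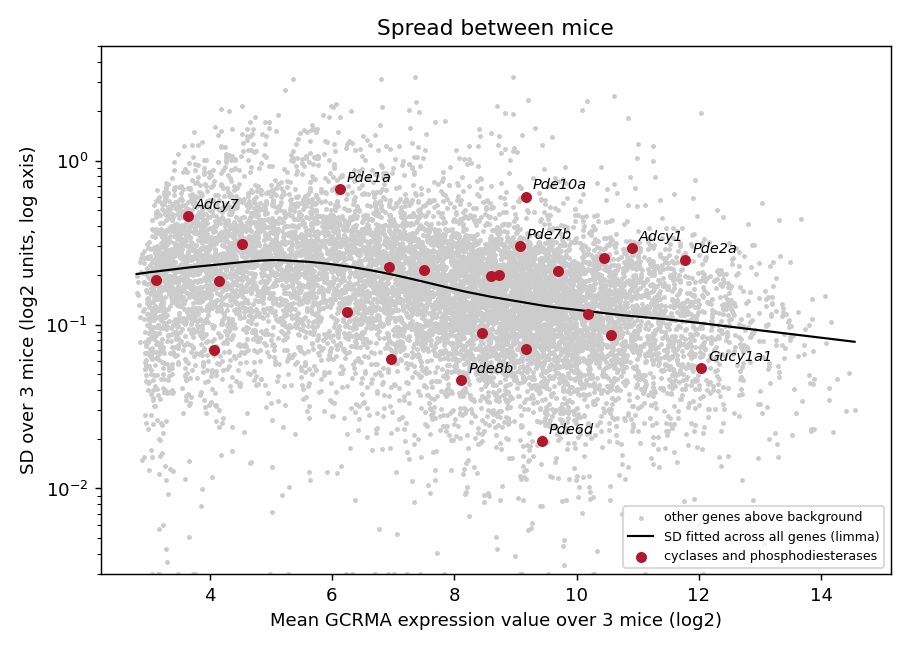
SD over the 3 mice (log2 units, log axis) against the mean expression value (log2) of all genes above background. Red points are the 25 cyclase, guanylate cyclase and phosphodiesterase genes, and the black line is the SD that limma fitted across all genes. Pde10a (0.60) and Pde1a (0.67) lie highest among the red points and Pde6d (0.02) lowest.

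Each of the 25 genes gave an order of the mice. Mouse 1 was highest for 13 of the 25 genes, mouse 2 for 6 and mouse 3 for 6, against 34%, 28.2% and 36.3% of all genes. Mouse 3 was lowest for 13 of the 25, and mouse 1 and mouse 2 for 6 each, against 31.7%, 32% and 34.5% of all genes. The medians of the signed differences were 0.03, -0.01 and -0.09 for mice 1, 2 and 3, each set against the average of the remaining mice. Genes of opposite sign cancel in these medians, such as Pde10a (1.03) and Pde1a (-1.15) in mouse 1, so they do not measure size. The genes that were highest in mouse 1 by at least 0.4 over the lowest mouse were Pde10a, Adcy7, Adcy1, Pde9a, Pde7b, Pde2a and Pde4b, and those lowest there by as much were Pde1a, Adcy6 and Adcy4. Of 13 genes with several probe sets above background, 6 had the same highest mouse on all of them and 4 the same lowest mouse. A tie was given to the lower-numbered mouse, as on the dimmer Pde8a probe set (3.73, 3.77 and 3.73). The same agreement over all genes was not counted, so these counts have no reference.

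**Figure D4:**
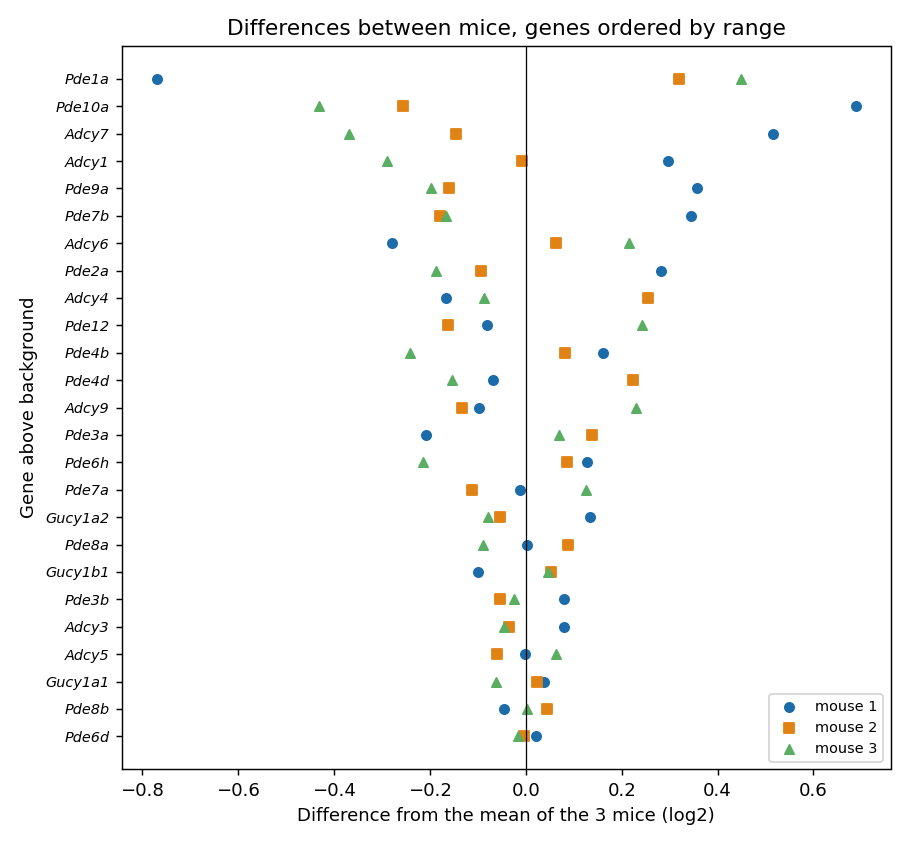
Difference of each mouse from the mean of the 3 mice (log2) for the 25 genes above background, ordered by range with the widest on top. Mouse 1 lies farthest left for Pde1a and farthest right for Pde10a, and below Pde7a all 3 mice lie close to 0.

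The rest of the cyclic nucleotide pathway was measured with 72 genes in 8 lists, and 58 were above background in all mice. None passed the limma test after adjustment, 5 of the 58 had an unadjusted p under 0.05 (4.66% of all genes did), and 9 had a 2-fold range (15.5%, against 5.94% of all genes). Of the protein kinase A subunits and inhibitors 9 of 10 were above background, with the catalytic subunit genes Prkaca at 10.51, 10.40 and 10.65 and Prkacb at 8.58, 8.81 and 8.67. Prkar1b, a regulatory subunit best known from neurons, was the 1 member of that list with a 2-fold range (4.23, 4.62 and 5.32). Of 12 anchoring genes 11 were above background and had a median SD of 0.11, among them Akap1 (7.22, 7.40 and 7.56) and Akap2 (11.05, 11.11 and 11.18).

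Of 11 other effectors and transporters 5 were above background. The cAMP-activated exchange factor gene Rapgef3, which encodes Epac, was at 9.95, 10.08 and 10.08, and the cGMP-dependent kinase gene Prkg1 at 9.39, 9.72 and 9.57. Its relative Prkg2 was at 3.43, 4.55 and 4.16, lowest in mouse 1 with a 2-fold range. The G protein alpha genes had a low spread, with a median SD of 0.07 over 5 genes, and Gnas, which encodes the stimulatory Gs, was at 13.65, 13.70 and 13.78. The inhibitory Gnai1 was at 11.28, 11.63 and 11.40. By median SD the G protein genes differed least between mice among these lists, and the 2-fold ranges were those of the dim Prkar1b and Prkg2.

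Receptors that raise cAMP were above background for 8 of 11 genes. The prostaglandin E receptor genes Ptger2 (7.96, 7.34 and 7.26) and Ptger4 (11.95, 11.72 and 11.77) were highest in mouse 1, as was the prostacyclin receptor gene Ptgir (5.52, 4.33 and 4.45), which had a 2-fold range. The glucagon receptor gene Gcgr was at 2.94, 4.61 and 3.24, also with a 2-fold range and highest in mouse 2. Prostanoid receptor genes and Gcgr therefore placed different mice on top. The natriuretic peptide receptor genes Npr1 (4.02, 4.38 and 3.89) and Npr2 (6.58, 6.65 and 6.44) lay lowest in mouse 3. The transcription factor gene Creb1 was at 10.68, 10.80 and 10.81, and Crem, of the same family, at 7.84, 7.16 and 7.61.

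Of 8 genes known to be induced by cAMP, 5 had a 2-fold range (62.5%, against 5.94% of all genes), and their median SD was 0.63, beside 0.20 for the 25 cyclase and phosphodiesterase genes and 0.16 for all genes. They were highest in mouse 2 in 7 of 8 cases, against 28.2% of all genes, with a median difference from the others of 0.84 there and of -0.89 in mouse 1. The orphan receptor genes Nr4a1 (8.04, 10.36 and 7.79), Nr4a2 (7.67, 8.28 and 7.57) and Nr4a3 (5.24, 9.24 and 5.96) belong to this list, and so do Fos (8.75, 10.10 and 10.09), the clock gene Per1 (8.34, 9.66 and 9.27) and the coactivator gene Ppargc1a (5.73, 6.87 and 6.07). Dusp1, at 11.78, 11.68 and 11.59, had a different order and was highest in mouse 1. Other signals induce most of these genes as well. Markers of the tubule beyond the proximal segment were also highest in mouse 2 for 3 of 4 genes above background (median 1.0), 7 of 8 heat shock genes were lowest in mouse 1 (median -1.06) while Hspb1 was highest there, and their part in these values was not tested.

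**Figure D5:**
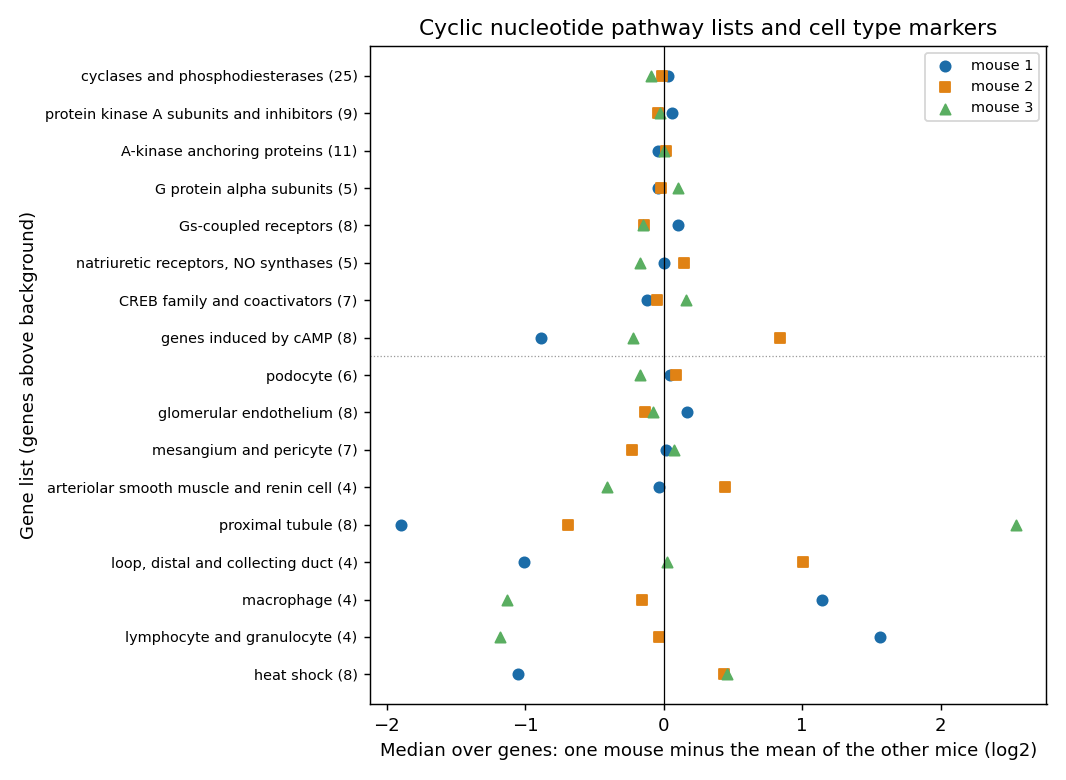
Median over the genes of a list of the difference (log2) of 1 mouse from the average of the remaining mice, with the number of genes above background in brackets. Pathway lists are above the dotted line, marker and heat shock lists below it. The medians of the cyclases and phosphodiesterases lie between -0.09 and 0.03, while those of the genes induced by cAMP run from -0.89 to 0.84 and those of the proximal tubule from -1.90 to 2.54.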

How the data were processed

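The deposited values are log2 expression values of 1 Affymetrix array per mouse, made by the authors with GCRMA, per the submitters' processing notes (version: not given in the sources used here). That the scale is log2 follows from the range of values alone (0.67 to 14.76). GCRMA corrects background by probe sequence and normalises arrays together, but the set of arrays normalised jointly is unstated in these sources. Some deposited values are identical on a pair of arrays, as in 8 of the 88 probe sets of these genes, which lowers their SD. Most of these are dim, but such pairs also occurred above background, as for Prkar1a (12.28 in mice 1 and 2). The platform annotation named the probe sets (34958 with 1 gene, 932 with several, 9211 with none), and all 37 genes matched the RefSeq gene table. The probe set with the highest mean stood for a gene.

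Excess variance was tested with limma 3.58.1 in R 4.3.3: each gene's variance over 3 mice was set against the scaled F distribution fitted across 10610 genes (trend on mean level, robust, one-sided), with Benjamini-Hochberg adjustment. On simulated data for this test it recovered 8 of 100 genes with 4 times the usual SD and 74 of 100 with 10 times. The simulated variances scattered less between genes than those of these arrays, where the fitted prior had 3.11 degrees of freedom. Recovery on these arrays can therefore be lower, and a missing call does not show an even level. The members and gene lists were chosen with earlier results of these data known. Named pathway genes are those with a 2-fold range and the first 2 of each list above background, and Dusp1 was named after its values were seen. The number of arrays and the signal over background limit precision, and 0 columns of per-sample values were left unused. Alternatives left out each mouse, averaged probe sets, and changed the background percentile (99), the filter, the normalisation, the variance prior and the unit tested.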

Additional observations from a re-analysis of the deposited data

How the results depend on the processing

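The count of the 25 genes above background and the 0 calls of excess variance stayed within 1.5 times of the reported values under all alternatives run on genes, with 22 to 25 genes above background where the filter stayed at 3 arrays, and 0 calls throughout. With every probe set as the unit, 47 probe sets were above background. The 2 genes with a 2-fold range, Pde10a and Pde1a, rest on mouse 1: the count was 0 without mouse 1, 2 without mouse 2 and 1 without mouse 3. Over all genes the count was 320 of 10648, 371 of 10822 and 319 of 10753, against 630 of 10610 with all mice. A range over fewer mice is never wider. When the probe sets of a gene were averaged, a mean that takes in probe sets at background, the count was 0, against 431 of all 10075. With every probe set it was 4, against 1086 of all 18479. With no filter on dim genes 14 genes were highest in mouse 2 and 10 lowest in mouse 1, over 37 genes tested. Over all 18194 genes these counts were 5359 and 5501. With a mouse left out, the highest or lowest of a pair is counted. Without mouse 1, mouse 2 was highest for 17 of the 25 genes and lowest for 8, against 4912 and 5624 of all 10648. Without mouse 3, mouse 2 was highest for 7 and lowest for 18, against 5006 and 5622 of all 10753. Adjusted p-values ran from 0.71 to 0.98 for Pde10a and from 0.94 to 0.98 for Pde1a. No paired analysis was possible because there is 1 group. At an unadjusted p of 0.05 the test picked 0 genes without mouse 1 and 0 with averaged probe sets, and 2, Pde10a and Pde1a, with the 99th percentile of background or no filter. Over all genes it picked 342 of 10648, 528 of 10075, 448 of 9409 and 657 of 18194 in these settings, in that order. With no trend and no robust fit it picked Pde1a and not Pde10a. New normalisation changed no count beyond 1.5 times. With arrays centred on the median, mouse 3 was lowest for 16 of the 25 genes and for 4571 of all 10610. As reported these counts were 13 and 3361.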
